A study of Mus musculus with 9 samples.

Results

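The small nucleolar RNA (snoRNA) host genes Gas5, Snhg1, Snhg3, Snhg4, Snhg5, Snhg6, Snhg8, Snhg12, Snhg15 and Snhg17 were followed in newly made RNA of cytotoxic (CD8+) T cells of the mouse. Members were chosen by gene symbol, and 9 of the 10 symbols had a row among the 37022 genes of the deposited tables. The symbol Snhg4 is not in the GENCODE M21 annotation used for the rows, so a gene at its locus is described separately and is not counted. The libraries came from CD8 T cells in 3 groups of 3: acute stimulation (Acute), chronic stimulation (Chronic), and chronic stimulation under an inhibitor of the MAP kinase kinase MEK (ChronicMEKi). All cells had been fed 0.2 mM 5-ethynyl uridine for 30 minutes, and the labelled RNA was captured before sequencing. The mouse strain, age, stimulation schedule and inhibitor are not given in the sources used here. The study compared these groups to follow changes of transcription linked to T cell exhaustion, the loss of function of T cells under lasting stimulation.

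A snoRNA host gene carries snoRNAs in its introns, which are cut out of the transcript and trimmed from the excised intron. Box C/D snoRNAs guide methylation of ribosomal RNA with the protein fibrillarin, and box H/ACA snoRNAs guide its pseudouridylation with dyskerin. The spliced RNA of several hosts, Gas5 among them, opens with a 5′ terminal oligopyrimidine tract (5′TOP, a C followed by a run of C and T), is bound by ribosomes and is removed by nonsense-mediated decay. In T cells Gas5 is known for RNA that accumulates when growth stops. Labelled RNA reports synthesis within the labelling time more than the stable pool that this decay sets.

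The 9 hosts hold 33 annotated small RNA genes on their own strand, at 31 separate loci. Of the 33 genes, 25 lie in an intron of the transcript used and 8 in an exon of it. Most of the 8 lie in Snhg1, whose transcript used is annotated as a retained intron. Its exons may therefore be introns of other Snhg1 transcripts. Gas5 holds 9 loci, Snhg1 8, Snhg12 4, Snhg17 3, Snhg3 and Snhg5 2 each, and Snhg6, Snhg8 and Snhg15 1 each. A search for box C (TGATGA within the first 25 bases) together with box D (CTGA within the last 25) matched 18 of the 33, or 54.5%. The same search matched 20.3% of all 1558 annotated snoRNA and scaRNA genes. Box ACA (ACA within the last 8 bases of a gene of at least 100 bases) matched 10 of the 33, or 30.3%, against 44.2% of all. A match is a description of letters only, and the search read the strand of each gene.

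Passengers of 5 hosts are shown to make these payloads concrete, with the matched boxes in capitals, 5′ to 3′, from mouse build GRCm38. Snord80 and Snord47 lie in Gas5 (chr1:161037601-161037681 and chr1:161038082-161038158, plus strand). Snord50a and Snord50b lie in 2 introns of Snhg5 (chr9:88521529-88521600 and chr9:88521797-88521868, minus strand). Snord87 is the single passenger of Snhg6 (chr1:9942463-9942549, minus strand), Snora24 that of Snhg8 (chr3:123507937-123508066, minus strand), and Gm24411 is 1 of the 3 in Snhg17 (chr2:158356424-158356554, minus strand), the host with the only called difference below.
Snord80: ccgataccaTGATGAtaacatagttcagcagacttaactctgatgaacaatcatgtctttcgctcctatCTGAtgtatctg
Snord47: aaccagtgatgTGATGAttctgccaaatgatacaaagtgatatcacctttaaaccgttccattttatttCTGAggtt
Snord50a: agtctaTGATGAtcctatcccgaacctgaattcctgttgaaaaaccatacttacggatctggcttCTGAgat
Snord50b: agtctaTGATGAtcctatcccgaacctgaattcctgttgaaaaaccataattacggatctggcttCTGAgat
Snord87: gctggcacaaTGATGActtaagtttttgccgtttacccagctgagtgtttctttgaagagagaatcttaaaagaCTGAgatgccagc
Snora24: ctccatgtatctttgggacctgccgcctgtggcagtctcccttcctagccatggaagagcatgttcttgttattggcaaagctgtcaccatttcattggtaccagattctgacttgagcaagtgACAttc
Gm24411: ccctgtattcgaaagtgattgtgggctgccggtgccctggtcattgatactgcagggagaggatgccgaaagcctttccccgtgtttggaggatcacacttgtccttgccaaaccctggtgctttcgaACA
The 2 Snord50 copies of 72 bases differ by 1 substitution, C50A, counted from the 5′ end of Snord50a. None of the annotated snoRNA genes had a row of its own in the tables (0 rows), so newly made host transcript and excised snoRNA cannot be told apart in the host's signal.

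Promoter sequence was taken from RefSeq (GRCm38.p6), which held 10 start sites for 8 of the 9 members. Windows of 60 bases, 40 before the start and 20 from it, are shown for the members with a pyrimidine tract beginning within 10 bases of the start or with a TATA motif. Capitals mark the tract (C then at least 4 C or T, on the gene's strand) and TATAAA (on the gene's strand, 20 to 40 bases before the start).
Gas5, chr1:161035126-161035185, plus strand: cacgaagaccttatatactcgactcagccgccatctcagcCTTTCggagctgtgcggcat
Snhg8, chr3:123508317-123508376, minus strand: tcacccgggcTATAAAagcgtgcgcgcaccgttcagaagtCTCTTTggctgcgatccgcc
Snhg12, chr4:132308638-132308697, plus strand: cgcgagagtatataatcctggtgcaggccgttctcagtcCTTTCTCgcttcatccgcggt
Snhg3, chr4:132353667-132353726, minus strand: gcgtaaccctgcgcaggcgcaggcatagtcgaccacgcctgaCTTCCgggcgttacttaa
Snhg5, chr9:88522878-88522937, minus strand: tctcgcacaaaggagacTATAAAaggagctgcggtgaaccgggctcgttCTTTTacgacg
The tract began exactly at the annotated start in 2 of the 8 members, Gas5 and Snhg8, as it did in 2.51% of 32851 windows of all genes. Within 10 bases of the start it was found in 5 of 8 members and 30.7% of all windows. TATAAA stood in 2 of 8 members, Snhg5 and Snhg8, and in 1.99% of all windows. In the 300 bases around the start, CACGTG, which reads the same on both strands, was in Snhg15 alone (7.15% of all windows), and CCGGAAG on either strand was in Snhg3 alone (8.86%). The shares of all genes are per window, while the members above are counted per gene. Per window, these 5 searches matched 2, 5, 2, 1 and 1 of the members' 10 windows.

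Values below are signal scaled between libraries, in arbitrary units, for a region named gene body and a region near the start named pause region. Gene-body totals as deposited were between 48601757 and 52216192 per library, but low values were whole multiples of a step that is not a read, so depth in reads is unknown. A group of rows resembling ribosomal RNA took 20.7% ± 1.63 (SD, n = 3) of the gene-body signal in Acute, 37.0% ± 3.30 in Chronic and 31.6% ± 3.92 in ChronicMEKi, which changes what a library total means. Dusp6, a phosphatase gene induced by the MAP kinase cascade, was at 2505 ± 291, 2395 ± 89.2 and 204 ± 9.69 in the 3 groups, so it was low where the labels give MEK inhibition. The 5 CD8 T cell markers (Cd8a, Cd8b1, Cd3e, Cd3d, Cd3g) were all listed above 0 in each group, with sums of 11929 to 13103, 7345 to 8014 and 10320 to 12000. The 5 did not move alike. Their log2 differences of Chronic from Acute were -2.07 (Cd8a), -0.60 (Cd8b1), -0.50 (Cd3e), -0.04 (Cd3d) and 0.09 (Cd3g). Cd4 was at 383 to 496, 144 to 344 and 101 to 141, and 3 B cell genes summed to 329 to 389, 68.8 to 156 and 73.9 to 210. Myeloid genes (Lyz2, Cd68, Csf1r) summed to 131 to 226 over the 9 libraries, and the NK, fibroblast and erythroid pairs to at most 54.2, 37.3 and 21.2. In these bulk cultures, fewer cells of a type and less RNA per cell cannot be told apart, and the part of the Cd4 and B cell signal in the results was not tested.

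All 9 host genes gave gene-body signal in every library. Their gene-body level lay between the 61.5th percentile of tested genes (Snhg8) and the 99.4th (Gas5). Per kilobase of the row's span, over the 9 libraries, Gas5 was highest at a mean of 5377, followed by Snhg1 at 3634, Snhg5 at 1643, Snhg3 at 1618, Snhg12 at 1358, Snhg8 at 1187, Snhg15 at 936, Snhg6 at 912 and Snhg17 at 550. Neighbours in that order were clearly apart in every group only at 2 steps, between Snhg1 and Snhg5 and between Snhg6 and Snhg17. Gas5 and Snhg1 overlapped in 1 group, and Snhg5 with Snhg3, Snhg3 with Snhg12, Snhg12 with Snhg8, Snhg8 with Snhg15, and Snhg15 with Snhg6 overlapped in 3, 2, 3, 1 and 3 groups. The 9 hosts together took 0.183% ± 0.0221 of the gene-body signal outside the ribosomal RNA-like rows in Acute, 0.157% ± 0.0285 in Chronic and 0.144% ± 0.0120 in ChronicMEKi.

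**Figure D1:**
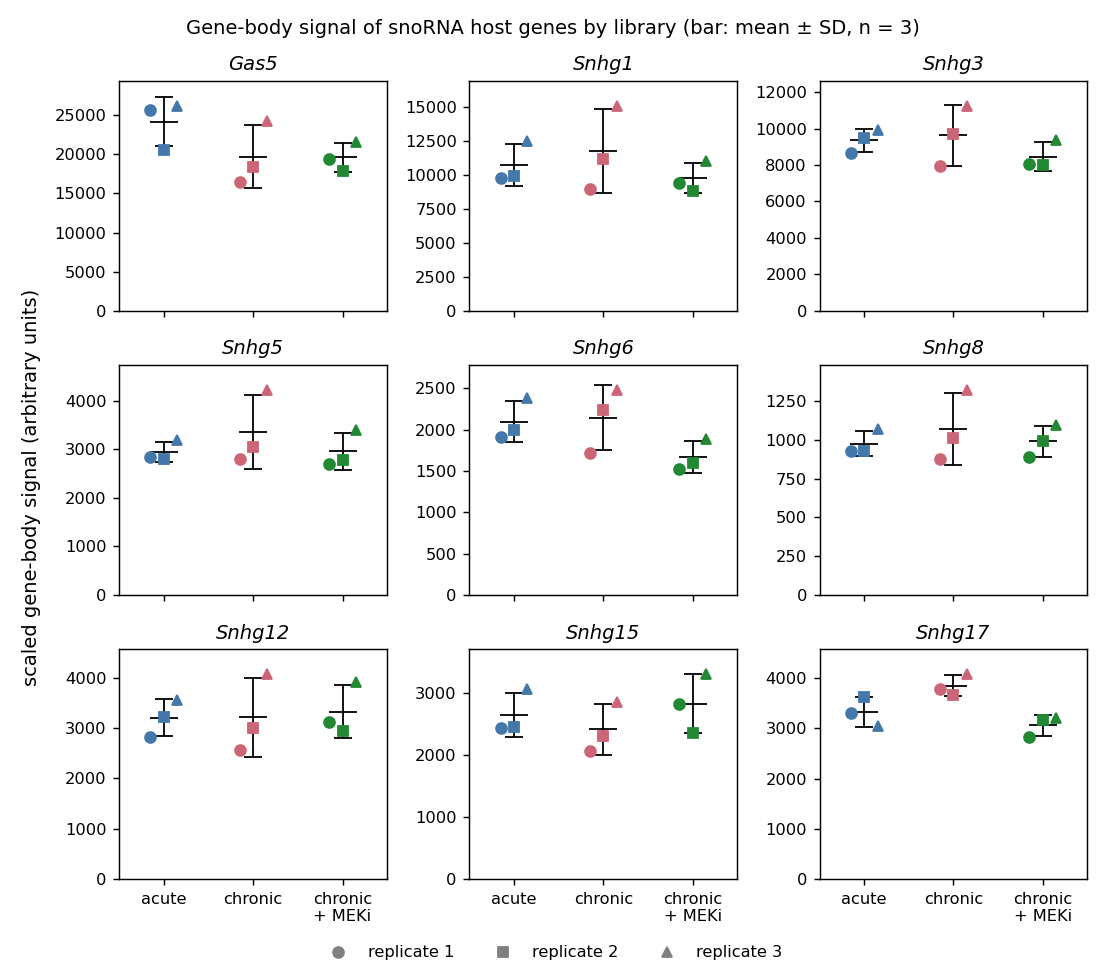
Scaled gene-body signal (vertical axis, arbitrary units, from 0) of the 9 host genes in each library of the 3 groups (horizontal axis); marker shapes give the replicate number, and the bar and whiskers give mean ± SD of 3 libraries. Gas5 runs from 16434 to 26210, and replicate 3 is the highest library in every Chronic and ChronicMEKi panel.

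Chronic against acute stimulation left the hosts' gene-body signal with no called difference. Of the 9 hosts, 0 passed limma's test at an adjusted p of 0.05, where 33.9% of the 15942 tested genes did, and 2 of 9, Gas5 and Snhg17, had an unadjusted p under 0.05, against 42.9% of genes. The members' log2 differences ranged from -0.31 to 0.21 with a median of 0.03, beside a median of -0.02 over all genes tested. A p that misses the threshold does not show equal levels, and the 95% intervals of the 9 differences bound them between -0.58 and 0.47.

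Gas5 gave the lowest of these values. This host carries box C/D snoRNAs, and its spliced RNA is a known growth-arrest transcript. Its row (chromosome 1, 161034607 to 161038539, plus strand) was at 25678, 20563 and 26210 in Acute, 16434, 18403 and 24226 in Chronic, and 19343, 17873 and 21598 in ChronicMEKi. The ranges of Acute and Chronic overlapped, since Chronic replicate 3 lay above Acute replicate 2. The means were 24150 ± 3118, 19688 ± 4052 and 19605 ± 1877 (SD, n = 3), and the log2 difference of Chronic from Acute was -0.31 (SE 0.131, 95% interval -0.58 to -0.03, limma adjusted p = 0.0851). ChronicMEKi stood as far below Acute, at -0.30 (adjusted p = 0.114), and differed from Chronic by 0.01 (95% interval -0.27 to 0.29). All 25 annotated Gas5 rows, which share most of their signal, were lower in Chronic than in Acute, by log2 values of -0.37 to -0.18. The adjusted p of Gas5 passed the threshold without Chronic replicate 3 (-0.46, adjusted p = 0.00642) and without Acute replicate 2 (-0.41, adjusted p = 0.0370). Without Chronic replicate 1 the difference was smaller, at -0.18 (adjusted p = 0.318), and over the 9 fits that leave out 1 library the adjusted p ran from 0.00642 to 0.318. The difference of ChronicMEKi from Acute ran from -0.46 to -0.24 in those fits.

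Snhg17, a host of box H/ACA snoRNAs on chromosome 2 (158355307 to 158361510, minus strand), was the member with the highest Chronic-against-Acute value. It was at 3313, 3631 and 3043 in Acute and at 3787, 3674 and 4083 in Chronic. Every Chronic library was above every Acute library, by a narrow margin. The log2 difference was 0.21 (SE 0.0987, limma adjusted p = 0.111) and was called only without Acute replicate 2 (0.28, adjusted p = 0.0482) among the 20 alternatives.

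The other 7 hosts differed by log2 values of -0.14 (Snhg15) to 0.17 (Snhg5) between Chronic and Acute. Snhg1, the U22 host with 8 small RNA loci (chromosome 19, 8723487 to 8726441, plus strand), was at 10729 ± 1541 and 11737 ± 3110. Snhg3, the U17 host (chromosome 4, 132348014 to 132353663, minus strand), was at 9349 ± 631 and 9618 ± 1667. It overlaps the protein-coding gene Rcc1 on the same strand, with gene starts 81 bases apart, so its signal may be shared with that gene. Snhg12, which lies near Snhg3 on the other strand (132308635 to 132311024), was at 3203 ± 368 and 3210 ± 778. For all 3 the spread among the Chronic libraries was larger than the difference between the means.

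The hosts of Snord50, Snord87, Snora24 and Snora9 were also close between these groups. Snhg5 (chromosome 9, 88521050 to 88522929, minus strand) was at 2946 ± 211 in Acute and 3361 ± 759 in Chronic. Snhg6 (chromosome 1, 9941959 to 9944118, minus strand) was at 2095 ± 251 and 2145 ± 387. Snhg8 (chromosome 3, 123507552 to 123508404, minus strand), whose Snora24 is shown above, was at 977 ± 79.8 and 1070 ± 230. Snhg15, the host of Snora9 (chromosome 11, 6525625 to 6528441, minus strand; its row matched only without the version of its identifier), was at 2658 ± 355 and 2418 ± 408. Every one of these 4 pairs of groups overlapped.

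**Figure D2:**
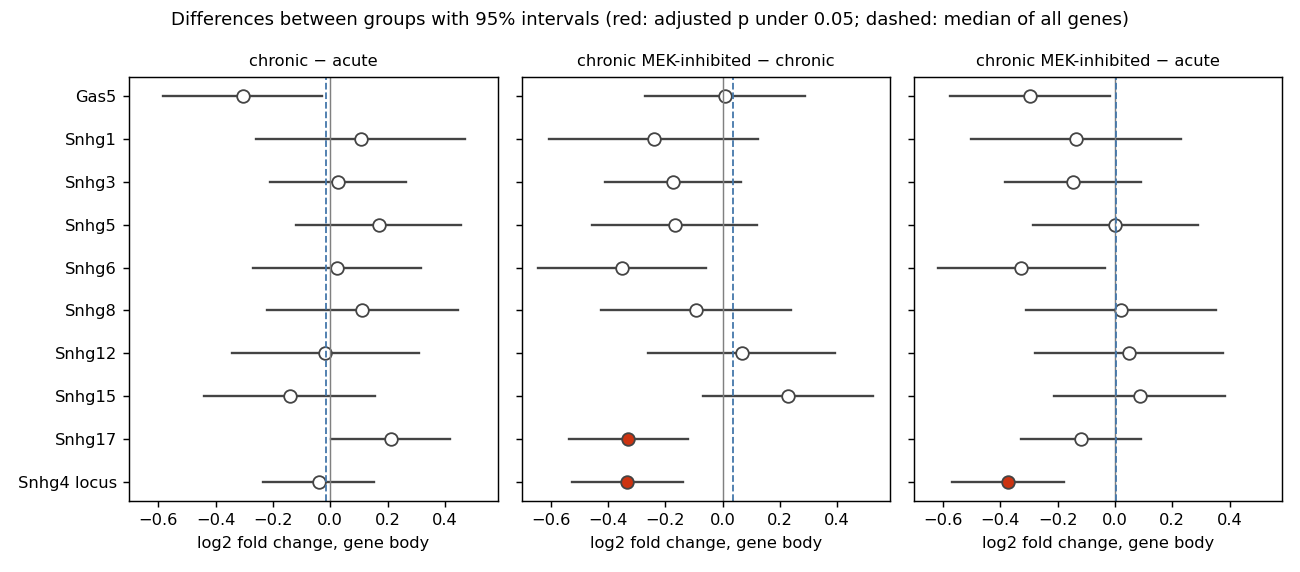
Log2 fold change of gene-body signal (horizontal axis) for the 9 host genes and the Snhg4 locus in the 3 comparisons, with 95% intervals; red points have a limma adjusted p under 0.05 and the dashed line is the median of all tested genes. Of the 9 hosts, Snhg17 alone is red, at -0.33 in ChronicMEKi against Chronic; the Snhg4 locus is red in both comparisons with ChronicMEKi.

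With MEK inhibited during chronic stimulation, Snhg17 was lower than in Chronic and the other 8 hosts had no called difference. The count was 1 of 9, where 17.6% of tested genes were called in either direction and 7.65% were called lower, so the share of hosts called was near the background. Snhg6 and Snhg17 had an unadjusted p under 0.05 (2 of 9, against 28.7% of genes). The members' median log2 difference was -0.17, beside 0.04 over all genes, and 6 of 9 values were negative. These 3 comparisons share libraries, so a member high in Chronic gives both a positive value against Acute and a negative one here.

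Snhg17 was at 2824, 3159 and 3207 in ChronicMEKi, below all 3 Chronic libraries and within or below the Acute range. The group means were 3848 ± 211 in Chronic and 3063 ± 208 in ChronicMEKi, a log2 difference of -0.33 (SE 0.0987, 95% interval -0.54 to -0.12, limma adjusted p = 0.0264). Its 8 annotated rows gave log2 values of -0.35 to -0.31. The call held in 12 of 20 alternatives; it was lost without Chronic replicate 3 (adjusted p = 0.0610) and without ChronicMEKi replicate 1 (adjusted p = 0.0707), and under library totals (-0.22, adjusted p = 0.280).

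Snhg6 had a lower value still but a wider spread. It was at 1720, 2234 and 2480 in Chronic, at 1526, 1595 and 1885 in ChronicMEKi and at 1910, 1993 and 2381 in Acute. ChronicMEKi was below Acute in every library, while Chronic replicate 1 fell within the ChronicMEKi range. The log2 differences were -0.35 from Chronic (SE 0.139, limma adjusted p = 0.0967) and -0.33 from Acute (adjusted p = 0.0968), and neither passed. Without Chronic replicate 1 the difference from Chronic was -0.50 (adjusted p = 0.0154), and without Acute replicate 2 it was -0.41 (adjusted p = 0.0495). Without Chronic replicate 3 it was smaller, at -0.24 (adjusted p = 0.307). Snhg6 overlaps Mcmdc2, a gene of the minichromosome maintenance family on the opposite strand, and whether the counting used strand is not given in the sources used here.

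For the remaining hosts the log2 difference of ChronicMEKi from Chronic ranged from -0.24 (Snhg1) to 0.23 (Snhg15). Leaving out 1 library moved Snhg1 between -0.42 (without Chronic replicate 1) and -0.045 (without Chronic replicate 3), and Snhg15 between 0.11 (without ChronicMEKi replicate 3) and 0.36 (without Chronic replicate 3). Snhg3 ran from -0.31 to -0.055 in those fits. Snhg1 was at 9747 ± 1117 in ChronicMEKi, Snhg3 at 8458 ± 781, Snhg5 at 2960.5 ± 381, Snhg8 at 992 ± 101, Snhg12 at 3324 ± 522 and Snhg15 at 2834 ± 476. Snhg15 and Snhg12 had positive values, 0.23 and 0.07. All 6 groups overlapped those of Chronic.

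Against Acute, the ChronicMEKi libraries again gave 0 of 9 hosts called in gene body, where 25.8% of tested genes were called; Gas5 and Snhg6 had an unadjusted p under 0.05, against 36% of genes. The median log2 difference of the members was -0.12 and that of all genes 0.00. The values ran from -0.33 (Snhg6) to 0.09 (Snhg15), and Snhg5, at 0.00 with a 95% interval of -0.29 to 0.29, was the closest to no difference.

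The locus of Snhg4 lies at 35553410 to 35558316 of chromosome 18 in RefSeq (GRCm38.p6). GENCODE M21 annotates there, on nearly the same bases (35553371 to 35558316), a noncoding gene with no symbol of its own that holds Snora74a. It overlaps the protein-coding gene Gm28285 on the same strand, so its signal may be shared with that gene. Gene-body signal of this locus was at 8851, 8492 and 9327 in Acute, 8432, 7898 and 9691 in Chronic, and 6774, 6527 and 7298 in ChronicMEKi. The ChronicMEKi libraries lay below the 6 others. The log2 difference was -0.33 from Chronic (SE 0.0921, limma adjusted p = 0.0163) and -0.37 from Acute (adjusted p = 0.00547), and -0.04 between Chronic and Acute (adjusted p = 0.773). The difference from Acute was called in all 20 alternatives, and that from Chronic in 15; it was not called without ChronicMEKi replicate 2 (adjusted p = 0.0763) and with library totals (-0.23, adjusted p = 0.266).

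The hosts varied together among the libraries of a group. Replicate 3 was the highest of its group for 8 of 9 members in Acute, 9 of 9 in Chronic and 9 of 9 in ChronicMEKi, where the same library was highest for 31.8%, 33.8% and 29.8% of all tested genes. Snhg17 in Acute was the exception. The median deviation of the members from their group mean was 0.32 on the log2 scale in Chronic replicate 3 and -0.27 in Chronic replicate 1, while the medians of all genes lay between -0.01 and 0.02. Among the Chronic libraries the ribosomal RNA-like share was 34.2%, 36.1% and 40.6% in replicates 1 to 3, and among the ChronicMEKi libraries 29.0%, 29.8% and 36.1%. In Acute it was lowest in replicate 3, at 19.1%, against 20.8% and 22.3%. The part of this share in the members' common deviation was not tested.

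**Figure D3:**
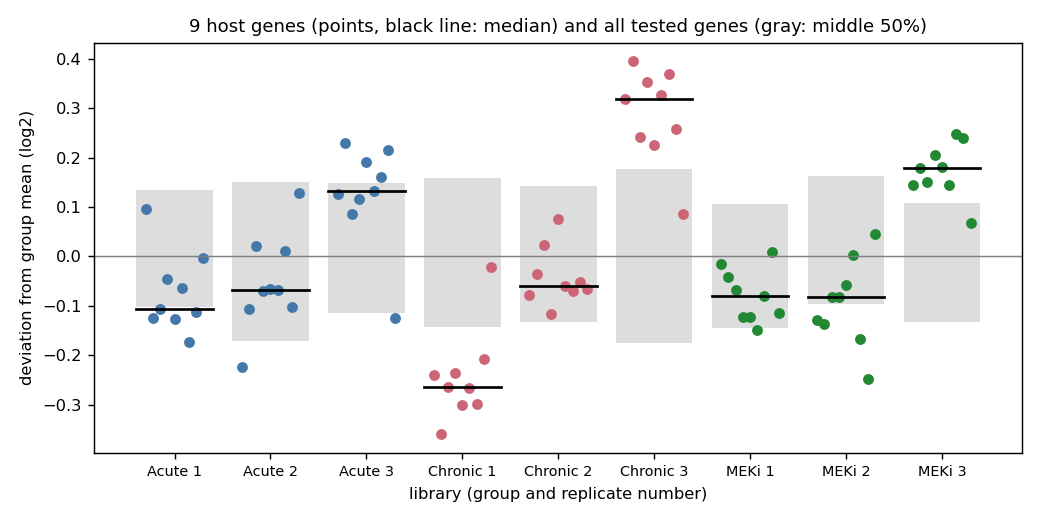
Deviation of each host gene from its group mean (vertical axis, log2) in the 9 libraries (horizontal axis), as points with their median as a black line, beside the middle 50% of all tested genes in gray. The members' median is 0.32 in Chronic replicate 3 and -0.27 in Chronic replicate 1.

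Over the 9 libraries, the profiles of single members (log2 signal less its own mean) differed from the members' mean profile by a root mean square of 0.05 (Snhg3) to 0.18 (Snhg17), against a median of 0.40 over all tested genes. The members help to form that mean profile. Among genes that are no members, the 5 closest were Rpl3 at 0.039, Rps27a at 0.062, Rpl5 at 0.063, Rcc1 at 0.064 and Pde12 at 0.067. Rpl3, Rps27a and Rpl5 encode ribosomal proteins, and Rpl3 and Rpl5 are themselves annotated with a snoRNA inside. Rcc1 encodes the nucleotide exchange factor of Ran and overlaps Snhg3 on the same strand, so those rows share signal. All 9 values of a profile carry the same library scale factors, and no p is given for this likeness.

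A pair of members start beside a protein-coding gene on the other strand. Slc3a2, a subunit of amino acid transporters, starts 106 bases from Snhg1 and runs away from it. Its gene-body signal was 3012 ± 252 in Acute, 4833 ± 669 in Chronic and 3718 ± 284 in ChronicMEKi, a rise of 0.67 on the log2 scale in Chronic over Acute (limma adjusted p = 1.1e-04); with library totals this was 0.18 (adjusted p = 0.243). In ChronicMEKi it fell by 0.37 from Chronic (adjusted p = 0.0266), a call lost without Chronic replicate 3 (adjusted p = 0.0823), without Chronic replicate 2 (adjusted p = 0.110) and without ChronicMEKi replicate 2 (adjusted p = 0.107). The call was also lost with library totals (-0.26, adjusted p = 0.192) and on the deposited scale (adjusted p = 0.228). No filter on low values, the sum of a gene's rows and plain moderation lost it too (adjusted p = 0.108, 0.0779 and 0.126). For Snhg1, on the other side of that shared start region, the same comparisons gave 0.11 (adjusted p = 0.667) and -0.24 (adjusted p = 0.399). Whether the 2 genes differ in their response was not tested. In the pause region Slc3a2 was at 1398 ± 471, 1330 ± 330 and 1023 ± 156, and Snhg1 at 2405 ± 732, 2212 ± 417 and 1730 ± 302. The use of strand is not given, so part of this pause-region signal may be shared by the 2 genes.

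Zbtb37, a zinc finger gene, overlaps the upstream start of Gas5 and starts 427 bases from it on the opposite strand. It was at 2074 ± 200 in Acute, 1572 ± 94.5 in Chronic and 2102 ± 54.2 in ChronicMEKi. Its signal fell by 0.40 in Chronic from Acute (limma adjusted p = 0.00854) and was higher by 0.42 in ChronicMEKi than in Chronic (adjusted p = 0.0110). The first call was lost without Acute replicate 1 (adjusted p = 0.0530), and the second without Chronic replicate 2 (adjusted p = 0.0501) and without ChronicMEKi replicate 1 (adjusted p = 0.0903). With no filter on low values both calls were lost (adjusted p = 0.0739 and 0.203). Gas5 gave 0.01 for ChronicMEKi against Chronic, and the difference between the 2 genes was not tested.

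In the pause region, 0 of 9 hosts were called in each comparison, where 10.7% of the 7678 tested genes were called for Chronic against Acute, 3% for ChronicMEKi against Chronic and 5.95% for ChronicMEKi against Acute. At an unadjusted p under 0.05 the counts were 0, 0 and 2 of 9 (Snhg1 and Snhg3), where 23%, 13.9% and 18.9% of genes passed. The log2 differences of Chronic from Acute ranged from -0.28 (Snhg5) to 0.06 (Gas5). In the rows chosen by gene-body signal, Snhg3 had the highest pause-region signal, with 4059 ± 767 in Acute, 3512 ± 349 in Chronic and 3168 ± 223 in ChronicMEKi. Part of that signal may be shared with Rcc1, which starts 81 bases from Snhg3 on the same strand. Snhg12 followed at 2456 ± 428, 2226 ± 512 and 2150 ± 382, and Snhg1 at 2405 ± 732, 2212 ± 417 and 1730 ± 302. That order depends on the row: with each gene's row of the largest pause-region signal, Gas5 was at 9322 ± 3362, Snhg1 at 5179 ± 1607 and Snhg3 at 4577 ± 797 in Acute. For Snhg17 the pause region was at 421 ± 72.7, 398 ± 117 and 306 ± 32.9, a log2 difference of -0.34 between ChronicMEKi and Chronic (limma adjusted p = 0.561).

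The balance of pause region to gene body, log2(pause region/gene body), was uneven among the hosts. Snhg8 had a mean of -0.40 over the 9 libraries and Snhg12 of -0.52, while the median of all genes passing in both tables was -3.79. Snhg3 was at -1.36, Snhg6 at -1.58, Snhg5 at -2.28, Snhg15 at -2.35, Snhg1 at -2.36 and Snhg17 at -3.21. These hosts are short, which leaves little gene body, and the ratio is not adjusted for length. The Snhg3 ratio may include signal of Rcc1, which was not tested. The change of this balance was called for 0 of 9 hosts and for 0% of tested genes in each of the 3 comparisons; 0 hosts had an unadjusted p under 0.05, where 10.1%, 5.31% and 7.97% of genes did.

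For Gas5 the ratio, -8.13, depended on the row. The row with the largest gene-body signal starts upstream of the start with the pyrimidine tract, and its pause-region signal was 64.3 ± 10.0 in Acute, 70.1 ± 29.9 in Chronic and 96.5 ± 18.1 in ChronicMEKi. Zbtb37, on the opposite strand, had nearly the same pause-region signal, at 64.0 ± 12.3, 60.3 ± 22.8 and 98.4 ± 20.9. In Acute replicate 2 both genes were at 67.7. These low values may be shared signal, so the ratio may not be that of Gas5 alone, which was not tested. Gas5 rows that start at position 161035166, where the tract shown above begins, had 3717, 2209 and 4464 in Acute, 2081, 2196 and 2313 in Chronic, and 1963, 2034 and 2430 in ChronicMEKi. At that start, 2 Acute libraries were above all others and Acute replicate 2 was not. In the fit that takes the row with the largest pause-region signal, chosen after seeing the data, the Gas5 row starts inside the gene, at 161036020, so its window is not at the gene's main start. There the signal was 9322 ± 3362 in Acute, 5594 ± 836 in Chronic and 5327 ± 623 in ChronicMEKi, with log2 differences from Acute of -0.67 (limma adjusted p = 0.0265) and -0.74 (adjusted p = 0.0235). Of the tested genes, 13% and 6.93% were called in those 2 comparisons of that fit.

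**Figure D4:**
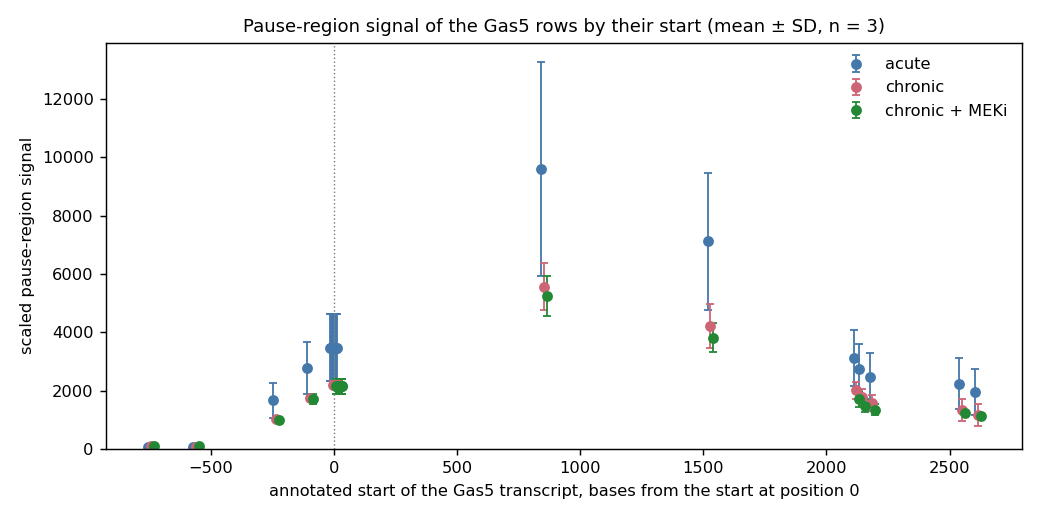
Scaled pause-region signal of the annotated Gas5 rows (vertical axis, mean ± SD of 3 libraries, arbitrary units) against the start of the row (horizontal axis, bases from the start with the pyrimidine tract, at 0), colored by group. Rows at 0 have 3463 ± 1149 in Acute, 2197 ± 116 in Chronic and 2142 ± 251 in ChronicMEKi, and the most upstream rows are near 64 in Acute.

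Scaling by library totals turned the sign of 6 of 9 differences between Chronic and Acute. Library totals shifted the median log2 difference of all genes between Chronic and Acute by -0.49, the deposited scale by -0.47, and totals that leave out the ribosomal RNA-like rows by -0.16. With library totals 6 of 9 hosts were called lower in Chronic than in Acute (Gas5, Snhg1, Snhg3, Snhg6, Snhg12 and Snhg15), where 43% of all genes were called lower. With the deposited scale the count was again 6, where 42.1% were, and without the ribosomal RNA-like rows it was 1, Gas5, where 23.7% were. Between ChronicMEKi and Acute the members called lower were 6, 5 and 4 of 9, where 31.3%, 28.5% and 19.8% of genes were. Gas5 was below Acute under all 4 scalings in both comparisons, with log2 values of -0.80 to -0.31 for Chronic.

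**Figure D5:**
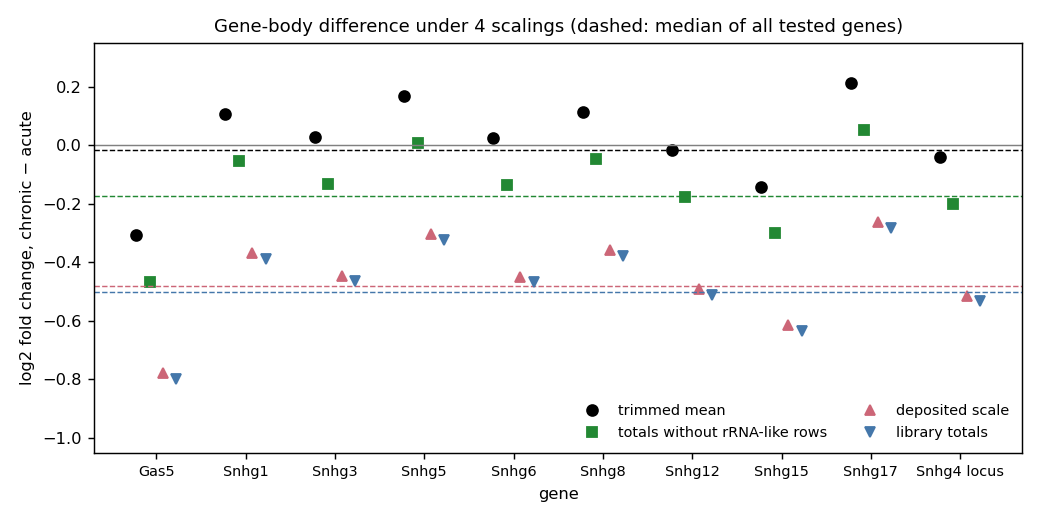
Log2 fold change of gene-body signal, Chronic minus Acute (vertical axis), of the 9 hosts and the Snhg4 locus (horizontal axis) under 4 scalings; dashed lines give the median of all tested genes under each. The hosts move down with the median of all genes, and Gas5 stays the lowest at -0.31 to -0.80.

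Other genes of the pathway were read from lists of their own. Of the other noncoding hosts, 7 of 11 could be tested; Snhg7 and Snhg9 had no matched row and Snhg11 and Snhg18 were too low. By limma's test 0 of 7 were called for Chronic against Acute, where 33.9% of all genes were. The count was also 0 of 7 for ChronicMEKi against Chronic, where 17.6% were. At an unadjusted p under 0.05 there were 2 of 7 in each, against 42.9% and 28.7% of genes. All 7 hosts had negative values in the second comparison. Their median log2 difference was -0.02 and -0.24 in these comparisons and -0.37 for ChronicMEKi against Acute. Against Acute, 3 of 7 were called in ChronicMEKi, where 25.8% of all genes were, and all 3 were lower: Snhg14, host of repeated box C/D snoRNAs, by -0.50 (limma adjusted p = 0.0465), Snhg16 by -0.37 (adjusted p = 0.0310) and Zfas1, host of box C/D snoRNAs, by -0.28 (adjusted p = 0.0394). These calls held in 4, 6 and 4 of the 9 fits that leave out 1 library, and were lost for each of the 3 genes without ChronicMEKi replicate 1 and without Acute replicate 3. Snhg14 was also lost without Acute replicate 1, Chronic replicate 2 and ChronicMEKi replicate 3, Snhg16 without ChronicMEKi replicate 2, and Zfas1 without Chronic replicate 2, ChronicMEKi replicate 2 and ChronicMEKi replicate 3.

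Among 16 named protein-coding hosts, 5 rose and 3 fell in Chronic against Acute (50%, against 33.9% of all genes). Their median was 0.15, beside -0.02 over all genes. Those that rose included Rps2, a ribosomal protein gene (0.75, limma adjusted p = 9.28e-05), and Hspa8, a constitutive chaperone (0.70, adjusted p = 1.85e-04). Cnot1, the scaffold of the deadenylase complex, fell by 0.33, Wdr43 by 0.29 and Nop58 by 0.28. Rps2, Hspa8, Cnot1 and Wdr43 were called in all 9 fits that leave out 1 library, and Nop58 in 5, being lost by leaving out Acute replicates 1 and 3 and Chronic replicates 1 and 2, each on its own. The direction of Rps2, Hspa8, Cnot1, Wdr43 and Nop58 was the same under all 4 scalings. For ChronicMEKi against Chronic limma called 0 of the 16, where 17.6% of all genes were called. At an unadjusted p under 0.05 there were 5 of the 16, against 28.7% of genes. For ChronicMEKi against Acute 4 rose and 3 fell (43.8%, against 25.8%). Over all 250 tested protein-coding genes with an annotated snoRNA inside, 43 rose and 30 fell in Chronic against Acute (29.2%, against 33.9% of all genes), with a median of 0.02. For ChronicMEKi 17 rose and 17 fell against Chronic (13.6%, against 17.6%), and 37 rose and 41 fell against Acute (31.2%, against 25.8%).

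Among the proteins that assemble snoRNAs into particles, 4 of 10 were called for Chronic against Acute, where 33.9% of all genes were, 1 of 10 for ChronicMEKi against Chronic (17.6%) and 3 of 10 for ChronicMEKi against Acute (25.8%). Of 7 tested core proteins, 1 was called against Acute in Chronic and in ChronicMEKi (14.3% in each, against 33.9% and 25.8% of all genes). Nop58, a box C/D core protein, fell by 0.28 in Chronic (limma adjusted p = 0.0218) and by 0.35 in ChronicMEKi (adjusted p = 0.00657) from Acute. The call of Nop58 in Chronic was lost without each of Acute replicate 1, Acute replicate 3, Chronic replicate 1 and Chronic replicate 2. At an unadjusted p under 0.05, 3 of 7 passed for ChronicMEKi against Acute, against 36% of genes. For ChronicMEKi against Chronic 0 of 7 were called (17.6% of all genes), with 1 at an unadjusted p under 0.05 (28.7%). Dyskerin's gene Dkc1 had no row. The core proteins' median for Chronic against Acute was 0.01, that of the assembly factors 0.03 and that of the decay factors -0.16. Of 10 assembly factors, Znhit3 (0.79) and Shq1 (0.33) rose and Naf1 (-0.92, adjusted p = 1.12e-06) and Nufip1 (-0.29) fell in Chronic against Acute. Shq1 and Nufip1 were each called in 5 of 9 fits that leave out 1 library (lost for both without Acute replicate 1, Acute replicate 3 and Chronic replicate 1, for Shq1 also without Chronic replicate 2 and for Nufip1 also without Chronic replicate 3), and Shq1 turned to -0.16 with library totals. Naf1, an assembly factor of box H/ACA particles, was at 2815 ± 94.6, 1487 ± 9.1 and 1547 ± 57.6 in the 3 groups. Shq1, a chaperone of dyskerin, fell by 0.57 in ChronicMEKi from Chronic (adjusted p = 0.00104), the 1 call of the 10 there. Against Acute, Pih1d1 rose by 1.03 (adjusted p = 0.00324) and Naf1 and Znhit6 fell by 0.86 and 0.48 in ChronicMEKi. Of 9 nonsense-mediated decay factors, 2 were called for Chronic against Acute (22.2%, against 33.9% of all genes). These were Upf2 (-0.48, limma adjusted p = 0.00348) and Smg1 (-0.31, adjusted p = 0.0124), both called in all 9 fits that leave out 1 library. For ChronicMEKi against Chronic 0 of 9 were called, against 17.6% of all genes. At an unadjusted p under 0.05 there was 1 of 9, against 28.7% of genes. For ChronicMEKi against Acute 1 of 9 was called (11.1%, against 25.8%). Smg1 fell there by 0.25 (adjusted p = 0.0440), a call lost without each of Chronic replicate 2, ChronicMEKi replicate 2 and ChronicMEKi replicate 3.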

How the data were processed

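The authors deposited 2 tables of signal per transcript, named for gene body and pause region, with 118482 rows and 9 library columns each. Low values are whole multiples of a step of 0.764 to 1.06 per library, and 4 steps are commoner than 1, so the signal was not treated as counts. The submitters' processing notes name mm10, FastQC 0.12.0, Trim Galore 0.6.10, STAR 2.7.0a, SAMtools 1.19.2, deepTools 0.1.9 and R 4.1.2; region coordinates and the use of strand are not given in the sources used here.

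Rows were matched to GENCODE M21 (117346 with version, 383 without, 753 unmatched; chromosomes 1 to 19), and each gene took its row of highest mean signal in the gene body. Genes that reached a signal of 50 in 3 or more libraries were tested, after scaling by a trimmed mean of log ratios (30% of log ratios, 5% of mean levels from each end). Log2(signal + 5), a scale that understates changes of low genes, was fitted with limma 3.58.1 in R 4.3.3 (a mean per group, all 9 libraries, trend and robust moderation). P-values were adjusted by Benjamini and Hochberg over all tested genes, with a threshold of 0.05. The scripts were tested on simulated data. No label says whether replicates are separate cultures or animals, so p-values measure only the spread between these samples. Members and lists were chosen with earlier results of these data known. Genes named are the members, their divergent neighbours, the 5 most alike profiles, examples among called genes of the lists, and Dusp6 as a check of the inhibitor.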

Additional observations from a re-analysis of the deposited data

How the results depend on the processing

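The count of the 9 hosts called in gene body for Chronic against Acute was 0, and 6 with library totals, 6 on the deposited scale, 1 with totals that leave out the ribosomal RNA-like rows, and 0 to 2 without 1 library. For ChronicMEKi against Chronic it was 1, and 0 with library totals, on the deposited scale, with no filter on low values, with the sum of a gene's rows, with plain moderation and with the row of the largest pause-region signal, and 0 to 2 without 1 library. For ChronicMEKi against Acute it was 0, and 6, 5 and 4 under those 3 scalings and 0 to 1 without 1 library. In the pause region the count of 0 became 6 (Chronic against Acute) and 3 (ChronicMEKi against Acute) with library totals, 1 in each with the row of the largest pause-region signal, and 0 to 1 without 1 library in the latter. The share of all pause-region genes called with library totals is not given here. The counts of 6 and 3 therefore cannot be read as a result about the hosts. Pausing gave 0 in every comparison under every alternative run. With library totals, the log2 difference changed sign, in Chronic against Acute to -0.39 for Snhg1, -0.46 for Snhg3, -0.32 for Snhg5, -0.47 for Snhg6, -0.38 for Snhg8 and -0.28 for Snhg17; in ChronicMEKi against Chronic to 0.015 for Snhg8; in ChronicMEKi against Acute to -0.38 for Snhg5, -0.36 for Snhg8, -0.34 for Snhg12 and -0.30 for Snhg15. On the deposited scale, the log2 difference changed sign, in Chronic against Acute to -0.37 for Snhg1, -0.45 for Snhg3, -0.30 for Snhg5, -0.45 for Snhg6, -0.36 for Snhg8 and -0.26 for Snhg17; in ChronicMEKi against Chronic to 0.038 for Snhg8; in ChronicMEKi against Acute to -0.34 for Snhg5, -0.32 for Snhg8, -0.29 for Snhg12 and -0.26 for Snhg15. With totals that leave out the ribosomal RNA-like rows, the log2 difference changed sign, in Chronic against Acute to -0.055 for Snhg1, -0.13 for Snhg3, -0.14 for Snhg6 and -0.047 for Snhg8; in ChronicMEKi against Chronic to -9.8e-04 for Gas5; in ChronicMEKi against Acute to -0.17 for Snhg5, -0.15 for Snhg8, -0.12 for Snhg12 and -0.083 for Snhg15. With no filter on low values, the log2 difference changed sign, in ChronicMEKi against Chronic to -0.061 for Gas5 and -0.0041 for Snhg12; in ChronicMEKi against Acute to -0.061 for Snhg5, -0.042 for Snhg8 and -0.014 for Snhg12. With the sum of a gene's rows, the log2 difference changed sign, in ChronicMEKi against Chronic to -0.025 for Gas5; in ChronicMEKi against Acute to -0.026 for Snhg5 and -0.049 for Snhg8. With only the 2 groups compared in the fit, the log2 difference changed sign, in ChronicMEKi against Chronic to -0.019 for Gas5. With the row of the largest pause-region signal, an alternative chosen after seeing the data, the log2 difference changed sign, in Chronic against Acute to -0.12 for Snhg6; in ChronicMEKi against Acute to 0.013 for Snhg3, -0.12 for Snhg5, -0.072 for Snhg8 and -0.012 for Snhg12. Without 1 library each, differences that turned sign ranged, in Chronic against Acute from -0.090 to 0.29 for Snhg1, -0.090 to 0.16 for Snhg3, -0.0057 to 0.29 for Snhg5, -0.087 to 0.18 for Snhg6, -0.049 to 0.25 for Snhg8, -0.20 to 0.13 for Snhg12 and -0.12 to 0.028 for the Snhg4 locus; in ChronicMEKi against Chronic from -0.11 to 0.17 for Gas5, -0.29 to 0.0080 for Snhg5, -0.23 to 0.070 for Snhg8 and -0.085 to 0.25 for Snhg12; in ChronicMEKi against Acute from -0.10 to 0.031 for Snhg5, -0.070 to 0.045 for Snhg8, -0.096 to 0.12 for Snhg12 and -0.032 to 0.20 for Snhg15. The cause of these changes was not tested, other than that a scaling moves all genes together.

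With the replicate number as a block, 1 of 9 hosts was called by limma for Chronic against Acute (Gas5, adjusted p = 0.0148). For ChronicMEKi, 2 were called against Chronic (Snhg6 and Snhg17) and 2 against Acute (Gas5 and Snhg6). In the same 3 comparisons 5497, 2956 and 4263 of the 15942 tested genes were called. Over all tested genes, deviations from the group means correlated at -0.53 to 0.098 in the 9 pairs with the same number, 0 of them over 0.1. In the 18 other pairs the range was -0.37 to 0.51. Among the 9 members, replicate 3 was the highest library for 8 in Acute, 9 in Chronic and 9 in ChronicMEKi. With 3 libraries a group, these values cannot decide whether the numbers pair the libraries, and no label says so. The depth in reads is unknown and 3 libraries a group limit the precision, so the intervals above bound what could be seen. Signal of overlapping genes and of near-identical snoRNA copies may be shared.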
